A study of Owenia fusiformis with 11 samples.

Results

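In the annelid Owenia fusiformis, 575 regions of open chromatin were at least 2 times more accessible in both competent larva libraries than in any library of the gastrula, axial elongation or the mature larva. They were chosen by a rule on their own accessibility. The mean over the 8 libraries had to be at least 100 normalised reads, the lower competent larva value had to be at least 2 times the highest value in the other 6 libraries, and the mature larva mean had to stay below 1.4 times the elongation mean. The 575 late-opening peaks were 1.21% of the 47582 peaks with a mean of at least 100 and 0.902% of all 63732 consensus peaks. Another 402 peaks passed the same competent larva criterion but were already higher in the mature larva than at elongation by 1.4 times or more, and they served as the comparison set.

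ATAC-seq (assay for transposase-accessible chromatin with sequencing) libraries of 4 stages were analysed, 2 per stage, each from a pool of whole embryos or larvae; the study also profiled the blastula, which was not analysed here, so late-opening refers to these 4 stages. Embryos were taken as gastrulae (9 h after fertilization) and during axial elongation (13 h), and larvae as mature mitrariae (27 h) and as competent larvae (3 weeks). The series compared these stages to follow chromatin accessibility through larval life. Per the study's methods, both competent larva libraries and 1 gastrula library were sequenced on another platform than the rest, and their reads were trimmed to 75 bases. Platform and stage therefore cannot be told apart for the competent larva, and the labels do not say whether replicates came from separate cultures.

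In ATAC-seq, the Tn5 transposase cuts and tags DNA that is not wrapped tightly by nucleosomes, so promoters, enhancers and other regulatory elements in use gather many reads. The mitraria is a planktonic, feeding larva in which the trunk of the future worm is at first only a small rudiment. The rudiment grows during larval life, and a competent larva, which has formed it, is ready to settle and undergo a rapid metamorphosis into the juvenile.

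In the competent larva, the late-opening peaks had a median of 544 normalised reads in replicate 1 and 511 in replicate 2. Their medians were 144 and 161 in the gastrula, 144 and 160 at elongation, and 165 and 182 in the mature larva. The competent libraries thus stood above all 6 others, as the rule required, and the earlier stages lay close to each other. Over all peaks with a mean of at least 100, the library medians ran only from 221 to 267. These levels come from bulk libraries, in which more cells with an open region and a region more open in each cell cannot be told apart.

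Per kilobase of peak, the median late-opening peak held 786 normalised reads in the competent larva and 240 over the 6 other libraries. The corresponding medians over all peaks with a mean of at least 100 were 334 and 371. By level, the median late-opening peak stood at percentile 81.7 of those peaks in the competent larva and at percentile 26.0 over the other 6 libraries. As many as 349 of the 575 (60.7%) were below the median of those peaks in all 6 earlier libraries, and 548 (95.3%) were above it in both competent libraries. The rule itself favours low earlier and high competent values, so these ranks are a description.

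**Figure D1:**
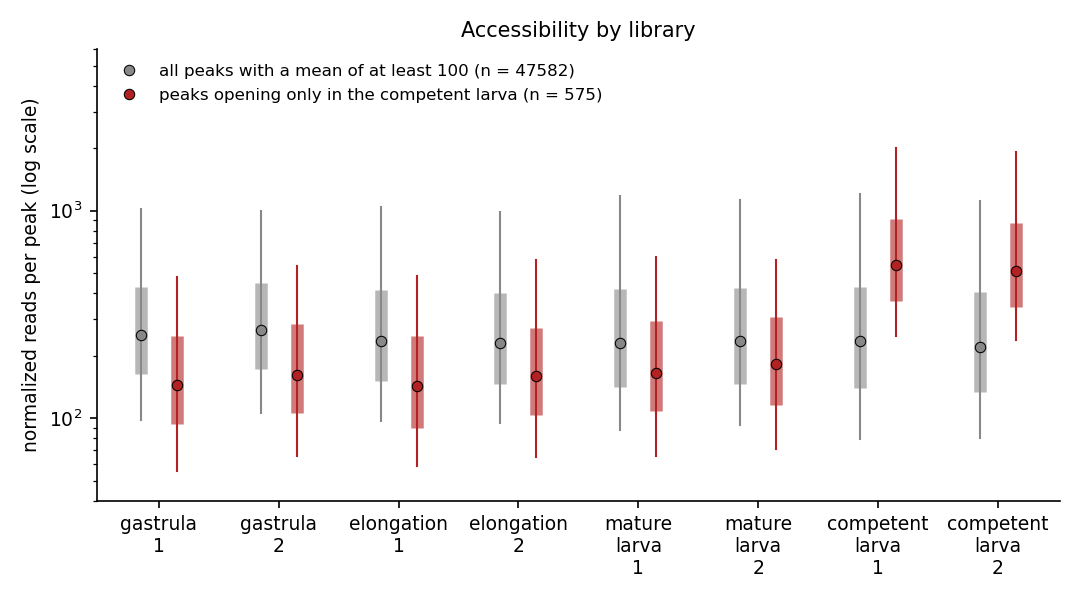
Normalised reads per peak (log axis) of the 575 late-opening peaks (red) and of all peaks with a mean of at least 100 (grey) in each of the 8 ATAC-seq libraries; points are medians, thick bars the quartiles and thin lines the 5th to 95th percentiles. The late-opening peaks have medians of 144 to 182 in the 6 earlier libraries and of 544 and 511 in the competent larva.

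The competent mean of the late-opening peaks ranged from 192 to 7218 normalised reads, with a median of 521 and quartiles of 360 and 881. It was a median of 3.13 times the mean of the other 6 libraries (range 2.22 to 9.32). Against the mature larva alone, the log2 ratio of the stage means had a median of 1.55 and ran from 1.02 to 5.42. Since the rule used these values, they are a description and were not tested. Many peaks lay close to the threshold: 200 of the 575 (34.8%) had a lower competent value of 2 to 2.2 times the highest other value, whereas 122 (21.2%) reached 3 times, 39 reached 4 times and 8 reached 5 times.

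The peak with the highest ratio of the lower competent value to the highest other value was OFUS_peak_27971 (scaffold 8, 3024109 to 3025103). Its normalised reads were 199 and 190.1 in the gastrula, 208 and 205 at elongation, 231 and 248 in the mature larva, then 1907 and 1784 in the competent larva. The 6 earlier values were within a narrow band, and both competent values lay 7.21 times or more above its upper edge.

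OFUS_peak_32493 (scaffold 9, 10674939 to 10675792) held 218 and 223 normalised reads in the gastrula, 159 and 174 at elongation, 225 and 195 in the mature larva, then 1784 and 1551 in the competent larva. OFUS_peak_20992 (scaffold 6, 4923018 to 4923330), only 313 bases wide, held 88.3 and 58.0, then 111 and 107, then 113 and 105, and at last 1031 and 779 at the same stages. Both had a ratio of 6.90, and in both the competent larva stood apart. At OFUS_peak_32493 elongation was below the gastrula and the mature larva, and at OFUS_peak_20992 the gastrula was below elongation and the mature larva. The competent mean of OFUS_peak_20992 was 9.32 times its mean over the other 6 libraries.

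OFUS_peak_53613 (scaffold 20, 3101384 to 3103157) differed in that its gastrula values, 376 and 359.6 normalised reads, were above all 4 values at elongation (217 and 301) and in the mature larva (252 and 238). It then reached 2531 and 2637 in the competent larva, a ratio of 6.73. It also had one of the 3 highest gastrula levels relative to elongation and the mature larva among the late-opening peaks.

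The other 4 of the 8 highest ratios lay between 5.05 and 5.64. OFUS_peak_17681 (scaffold 5, 8649960 to 8650718) held 139.9 and 145 normalised reads in the gastrula, 105 and 143 at elongation, 135 and 158 in the mature larva, then 923 and 889.5 in the competent larva. OFUS_peak_9977 (scaffold 3, 9457137 to 9457992) held 257 and 342, 275 and 353, 331 and 312, and then 1978 and 1872. At both, the 3 earlier stages overlapped and the competent replicates were close together.

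OFUS_peak_62783 (scaffold 32, 1204925 to 1205514) held 103 and 114 normalised reads in the gastrula, 95.7 and 148 at elongation, 151 and 177 in the mature larva, then 1145 and 903 in the competent larva. OFUS_peak_49845 (scaffold 17, 6482146 to 6483862) held 514 and 530.0, 417 and 588, 543 and 497, and then 3638 and 2971. OFUS_peak_62783 was somewhat higher in the mature larva than before it, whereas the earlier stages of OFUS_peak_49845 overlapped.

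**Figure D2:**
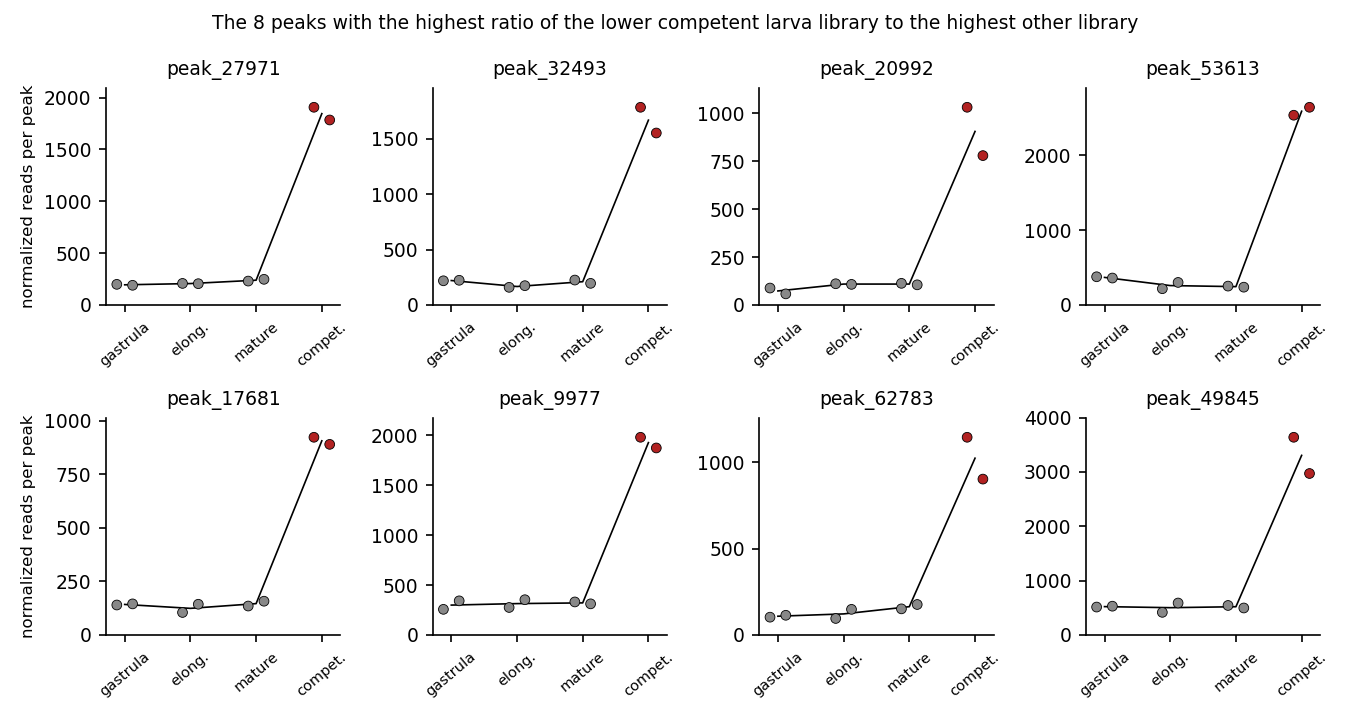
Normalised reads per peak by stage for the 8 late-opening peaks with the highest ratio of the lower competent value to the highest other value; each point is a library, and the line joins the stage means. In all 8, both competent points (red) lie at least 5.05 times above the highest earlier point (grey).

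The late-opening peaks with the highest competent means were wide and were already accessible before competence. OFUS_peak_28878 (scaffold 8, 9291385 to 9294730), the widest of the 575 with 3346 bases, held 1800.3 and 1827 normalised reads in the gastrula, 1754 and 1716 at elongation, 2049 and 1839 in the mature larva, then 7287 and 7148 in the competent larva. OFUS_peak_20237 (scaffold 5, 25936311 to 25938459) held 1407 and 1351, 1502 and 1608, 2186 and 1966, and then 6833 and 6152. In both, the mature larva values were above all 4 earlier ones, though at OFUS_peak_28878 replicate 2 exceeded them only narrowly.

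OFUS_peak_49294 (scaffold 17, 2799260 to 2801685) held 1740.2 and 1527 normalised reads in the gastrula, 1692 and 1547 at elongation, 1741 and 1514 in the mature larva, then 5677 and 4814 in the competent larva. OFUS_peak_21462 (scaffold 6, 8761686 to 8764585) held 1386 and 1561, 1513 and 1396, 1358 and 1334, and then 4717 and 4094. The ratio of the lower competent value to the highest other value was 2.62 to 3.49 in these 4 peaks, below that of the 8 peaks with the highest ratios.

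At the threshold, OFUS_peak_30496, OFUS_peak_62775 and OFUS_peak_11014 were just inside. The lower competent value of OFUS_peak_30496 was 1143 normalised reads, which was 2.00003 times its highest other value of 572. OFUS_peak_19199, OFUS_peak_1958 and OFUS_peak_21218 met every other criterion and were just outside. OFUS_peak_19199 had a lower competent value of 721, which was 1.99968 times its highest other value of 360.3.

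The limit on the mature larva was close for some regions as well. The ratio of the mature larva mean to the elongation mean had a median of 1.17 over the late-opening peaks, and 125 of them lay between 1.3 and 1.4, while 100 peaks of the comparison set lay between 1.4 and 1.5. Among the 3 earlier stages, the mature larva had the highest mean in 366 of the 575 peaks (63.7%), the gastrula in 155 (27.0%) and elongation in 54 (9.39%). Over all peaks with a mean of at least 100, these shares were 33.1%, 52.2% and 14.7%, and in the comparison set 96.3%, 3.73% and 0%. The choice of both sets used these values, so the shares are a description. A mature larva to elongation ratio below 1 was found in 107 late-opening peaks (18.6%), against 50.7% of all peaks with a mean of at least 100, also a description.

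The lowest ratio belonged to OFUS_peak_36085 (scaffold 11, 1864914 to 1865788), which was singled out after its values were seen. It held 76.3 and 77.2 normalised reads in the gastrula, 88 and 57.5 at elongation, 13.4 and 6.0 in the mature larva, then 520 and 313 in the competent larva. Both mature larva values were far below all 4 earlier values, and the mature larva mean was 0.134 times the elongation mean. The competent replicates of this peak differed 1.66-fold, near the upper end of the range over the late-opening peaks (0.678 to 1.73).

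Before competence most late-opening peaks varied less than 2-fold between the 6 earlier libraries. The highest of the 6 earlier values was under 1.5 times the lowest in 215 of the 575 (37.4%) and under 2 times in 495 (86.1%), against 24% and 68.5% of all peaks with a mean of at least 100. The limits of the rule on the mature larva and on the highest earlier value bear on these shares, so they are given as a description. Replicate 1 of the competent larva was above replicate 2 in 410 of the 575 peaks (71.3%), with a median ratio of 1.07, which was close to the 1.06 over all peaks with a mean of at least 100. The SD of the log2 ratio between the competent replicates was 0.21 in the late-opening peaks and 0.34 over those peaks, and the rule favours peaks whose lower replicate is high.

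Sequencing depth differed between libraries, with approximate reads in consensus peaks from 7999520 in competent replicate 1 to 44830670 in elongation replicate 2. The median late-opening peak held about 228 and 760 reads in the competent replicates and 84 to 417 in the others. The lowest held about 85 and 263 in the competent replicates. Against the 2 gastrula libraries, of which 1 shared the platform of the competent larva, the competent mean was a median of 3.68 times the value in replicate 1 and 3.09 times that in replicate 2. The rule fixes both ratios at 2 or more, and the part of the platform in the opening was not tested.

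Gastrula and elongation were compared next. The rule capped both stages, and its limit on the mature larva set a floor under elongation but none under the gastrula, so this contrast was not independent of the choice of peaks and nothing is read from it about them as a group. In limma's test over all peaks, 4 of the 575 late-opening peaks (0.696%) opened and 0 closed at a Benjamini-Hochberg adjusted p under 0.05. Over all 61869 peaks tested, 1.21% opened and 0.501% closed. At an unadjusted p under 0.05, 44 late-opening peaks (7.65%) were found, 22 of them opening, against 19.0% of all peaks. The median log2 difference was -0.02 in the late-opening peaks, -0.17 in the comparison set and -0.14 over all peaks. Quantile normalization moved it to 0.13 in the late-opening peaks and to -0.02 over all peaks, and left the count of late-opening peaks called at 4.

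The largest of the 4 was at OFUS_peak_11407 (scaffold 3, 19851605 to 19852341), with 178 and 149 normalised reads in the gastrula and 392 and 339 at elongation. Its mature larva values were 477 and 434, and its competent larva values were 1031 and 1025. Its gastrula and elongation values did not overlap, and the mean went from 164 ± 20.6 to 366 ± 37.1 (SD, n = 2 each), a log2 difference of 1.16 (SE 0.17). Its stage mean was higher at each later stage, although it met the limit on the mature larva.

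OFUS_peak_46247 (scaffold 15, 6989849 to 6991891) held 458 and 546 normalised reads in the gastrula and 885 and 1067 at elongation, a log2 difference of 0.96 (SE 0.15). The log2 difference was 0.89 at OFUS_peak_30496 (SE 0.18), the peak just inside the threshold, and 0.68 at OFUS_peak_27188 (scaffold 7, 21410146 to 21411755, SE 0.15). In all 4, both elongation values were above both gastrula values. These calls rested on each library: the count was 2 without gastrula replicate 1, 1 without gastrula replicate 2, and 0 without any single library of elongation, the mature larva or the competent larva. It was also 0 when peaks at 0 in all libraries were kept or when the mean trend was left out. Over all peaks, 748 opened and 310 closed in the main fit. With the peaks at 0 kept, 34 opened and 4 closed, and without the mean trend 1 opened and 0 closed. The number called over all peaks was also lower whenever a library was left out, so the losses were not particular to these peaks.

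Other peaks had unusual levels in the gastrula but did not pass that test. OFUS_peak_53262 (scaffold 19, 10120632 to 10120754), the narrowest late-opening peak with 123 bases, held 110.0 and 63.7 normalised reads in the gastrula, 41.2 and 46.2 at elongation, 35.8 and 40.8 in the mature larva, then 517 and 335 in the competent larva. OFUS_peak_53979 (scaffold 20, 6871413 to 6871901) held 107 and 94.5, 50.6 and 66.9, 62.7 and 70.8, and then 303 and 244. In both, the gastrula was above elongation and the mature larva without overlap.

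At the other end were OFUS_peak_36823 and OFUS_peak_59563. OFUS_peak_36823 (scaffold 11, 8963878 to 8964793) held 88.2 and 9.66 normalised reads in the gastrula, 108 and 84.9 at elongation, 153 and 101 in the mature larva, then 533 and 483 in the competent larva. OFUS_peak_59563 (scaffold 26, 3479787 to 3480019) held 35.3 and 63.7, 97.5 and 88.8, 127 and 111, and then 627 and 424. The low gastrula mean of OFUS_peak_36823 came from replicate 2 alone, whereas both gastrula values of OFUS_peak_59563 were below all others.

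The authors' peak lists were called on each library separately, but on the same libraries that the rule used. The rule favours peaks called in the competent larva and not before, so the shares from these lists, here and below, are a description. All 575 late-opening peaks overlapped a called peak in competent replicate 2 and 571 (99.3%) in replicate 1. Called peaks overlapped 19.8% and 27.3% of them in the mature larva, 22.8% and 13.9% at elongation, and 35.7% and 55.7% in the gastrula. The corresponding shares over all peaks with a mean of at least 100 were 40.9% and 56.1% in competent replicates 1 and 2, 49.9% and 55.7% in the mature larva, 67.7% and 50.5% at elongation, and 85.6% and 92.7% in the gastrula. The lists linked to the gastrula and elongation samples carry each other's names, and exchanging them turns the 199 late-opening peaks in both gastrula lists into 62 and the 62 in both elongation lists into 199.

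A called peak in both competent libraries and in none of the other 6 was found for 234 of the 575 (40.7%), against 2.48% of all peaks with a mean of at least 100 and 53.7% of the comparison set. OFUS_peak_20992 and OFUS_peak_17681 were of this kind. At the other end, 45 (7.83%) had a called peak in all 8 libraries, among them OFUS_peak_9977, OFUS_peak_49845 and the 4 peaks with the highest competent means. As many as 399 of the late-opening peaks (69.4%) were in neither mature larva list, against 37.9% of all peaks with a mean of at least 100. Those 399 still had a median mature larva level of 231 normalised reads per kilobase, so these regions held reads without being called. Peaks in neither mature larva list had a median of 294 over all peaks with a mean of at least 100 and of 231 in the comparison set.

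Where peaks were called in both competent replicates, their summits lay a median of 49 bases apart, and 72.2% were within 100 bases of each other. Over all peaks with a mean of at least 100 the median was 60 bases, and 63.1% were within 100 bases. Between competent replicate 1 and mature larva replicate 1, summits of the 114 late-opening peaks called in both were a median of 124.5 bases apart, against 95.5 bases over all such peaks. The other pairs of a competent and a mature larva replicate had medians from 124.5 to 145 bases, against 95 to 109 bases. The mature larva replicates themselves were a median of 110 bases apart in the 95 late-opening peaks called in both, against 99 bases over all such peaks. The median fold enrichment over local background in the late-opening peaks was 3.76 and 3.5 in the competent replicates. It was 3.57 and 2.84 over all called peaks with a mean of at least 100, and 3.97 and 3.67 in the comparison set.

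**Figure D3:**
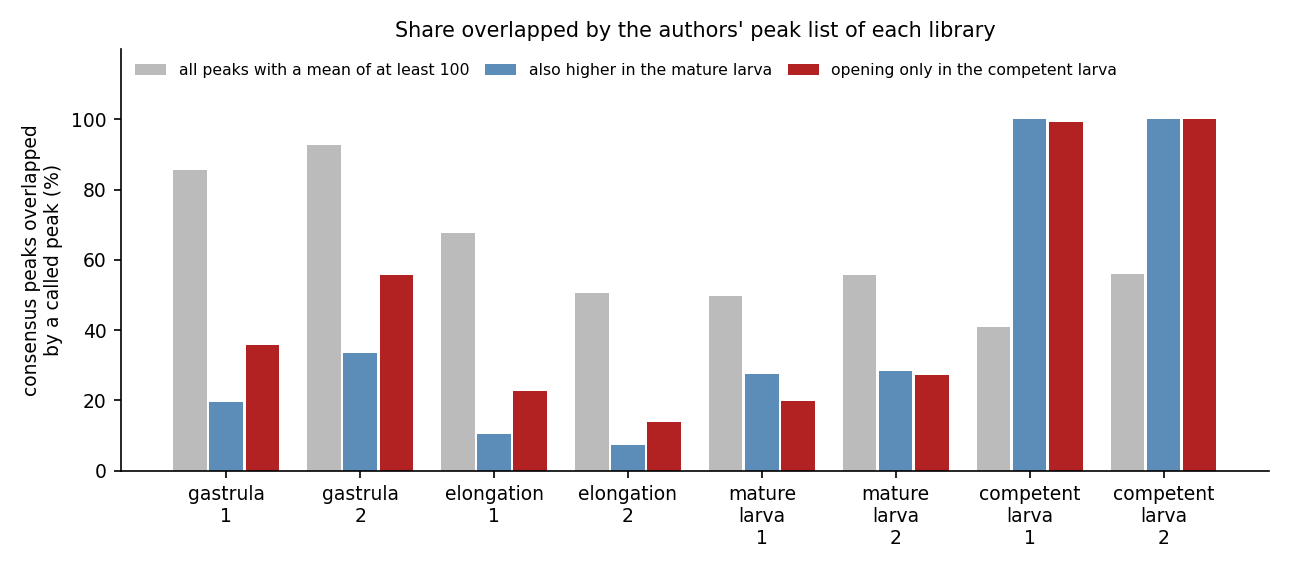
Share of consensus peaks (%) overlapped by a peak that the authors called in each library, for all peaks with a mean of at least 100, the comparison set and the 575 late-opening peaks. Late-opening peaks reach 99.3% and 100% in the competent larva and 13.9% to 55.7% in the other libraries.

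In width the late-opening peaks were ordinary, with a median of 721 bases (123 to 3346) against 718 over all peaks with a mean of at least 100. Their share among those peaks was 0.957% in the narrowest of 4 width classes of about equal size, 1.45% and 1.36% in the middle classes and 1.07% in the widest. The next consensus peak of any kind was a median of 1386 bases away, against 1769 bases over all peaks with a mean of at least 100. The late-opening peaks were spread over 35 of the 40 scaffolds that held a peak of that level. Scaffold 3, one of the largest by peaks, held the greatest number, 55 of 3147 (1.75%). Among scaffolds with a late-opening peak, the share was highest on scaffold 35 (7 of 140, 5%), followed by scaffold 32 (5 of 167, 2.99%) and scaffold 25 (13 of 472, 2.75%), and was 0.212% on scaffold 24 (1 of 471).

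They often lay near each other. Another late-opening peak was within 20000 bases of 155 of the 575 (27.0%), whereas 6.59% of all peaks with a mean of at least 100 and 22.1% of the comparison set were that near to a late-opening peak. Within 10000 bases the shares were 20.5% for the late-opening peaks, 3.75% for all peaks with a mean of at least 100 and 14.2% for the comparison set. Joined at gaps of at most 20000 bases, the 155 peaks formed 65 runs, of which 51 held 2 peaks, 8 held 3, 2 held 4, 3 held 5 and 1 held 6. The other 420 stood alone.

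Runs were ranked by their number of late-opening peaks and, where tied, by their competent mean, not by their span. The first lay on scaffold 3 (19717413 to 19767775), where 6 of 15 consensus peaks in 50363 bases were late-opening. Its strongest peak, OFUS_peak_11393, held 336 and 300.3 normalised reads in the gastrula, 310.3 and 275 at elongation, 235 and 235 in the mature larva, then 1132 and 919.6 in the competent larva. This peak was lowest in the mature larva, and the competent libraries stood apart. Over the 6 peaks of the run the ratio of the competent to the mature larva mean was 2.27 to 4.36. The 9 other peaks within the same span had ratios from 0.980 to 4.71, and 8 of them were above 1.

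On scaffold 4 (3023160 to 3037686), all 5 consensus peaks in 14527 bases were late-opening, with ratios of the competent to the mature larva mean from 3.53 to 7.41. OFUS_peak_12925 held 183 and 137 normalised reads in the gastrula, 196 and 157 at elongation, 93.5 and 141 in the mature larva, then 894 and 843 in the competent larva. Both mature larva values were below both elongation values, and the gastrula overlapped with each of these stages. The widest peak of the run, OFUS_peak_12926, held 258 and 297, 400.1 and 276, 355 and 367, and then 1204 and 1345. The competent values of the other peaks in the run were 1319 and 1307 at OFUS_peak_12922, 685 and 661 at OFUS_peak_12923, and 494 and 539.8 at OFUS_peak_12924. No peak without a late opening interrupted this stretch.

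The run on scaffold 7 (2976007 to 3006347) held 5 late-opening peaks among 13 consensus peaks in 30341 bases. OFUS_peak_24489 was the strongest, with 295 and 285 normalised reads in the gastrula, 326 and 395 at elongation, 356 and 416 in the mature larva, then 1670.4 and 1621 in the competent larva. The 5 ratios of the competent to the mature larva mean ran from 2.39 to 4.26. The 8 other peaks in the span had ratios from 0.544 to 2.36, and 5 of them were above 1. In this run late-opening peaks thus stood beside peaks that were lower in the competent larva. Another run, on scaffold 22 (4582595 to 4601425), also held 5 late-opening peaks, among 9 consensus peaks in 18831 bases, with a lower competent mean of 641 normalised reads over its late-opening peaks.

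**Figure D4:**
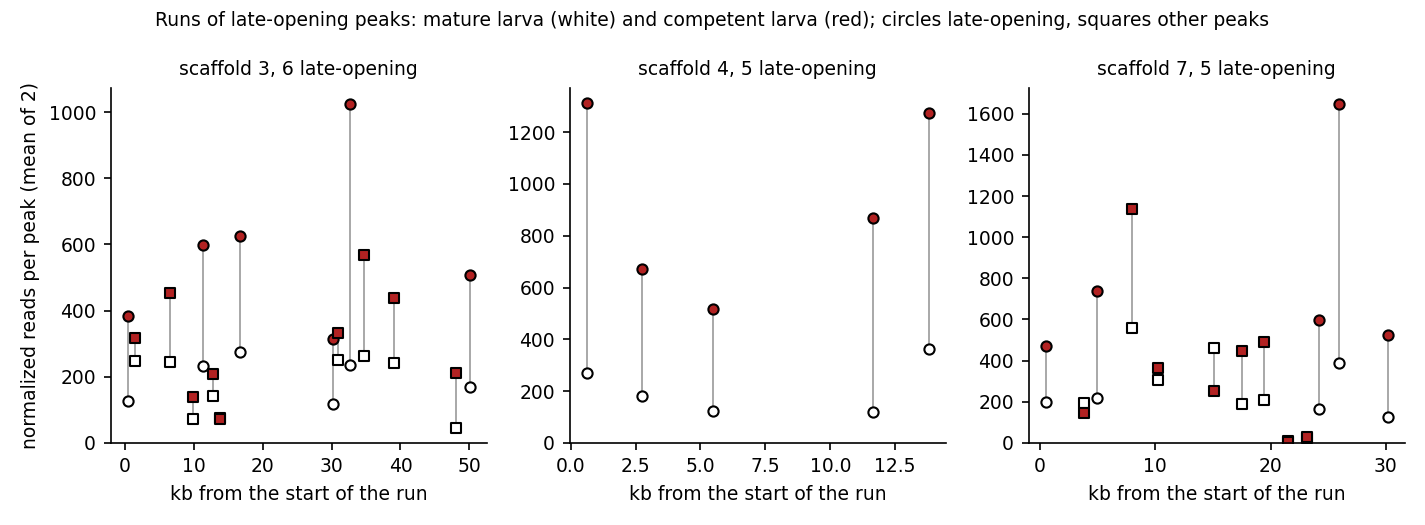
Mean normalised reads per peak (n = 2 libraries) in the mature larva (white) and the competent larva (red) for every consensus peak in the 3 runs ranked first by number of late-opening peaks and then by competent mean, against distance in kilobases from the start of the run; circles are late-opening peaks and squares other peaks. The run on scaffold 4 holds only late-opening peaks, with competent to mature larva ratios from 3.53 to 7.41.

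Peaks near the late-opening ones were examined next, because none of them met the whole rule, although some passed its competent larva criterion. Of the 1938 other peaks within 10000 bases of a late-opening peak, 373 (19.2%) opened from the mature to the competent larva and 108 (5.57%) closed by limma's test at an adjusted p under 0.05. Over all 61294 tested peaks that were not late-opening, 7.13% opened and 7.39% closed. The median log2 difference of the neighbours was 0.05, against -0.09 over the wider set. Of the 575 late-opening peaks, 555 had a neighbour within that distance and 296 (51.5%) had one that opened. A peak that opened and was not itself late-opening lay within the same distance of 21.3% of the 47007 other peaks with a mean of at least 100 and of 48.5% of the comparison set.

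The share called opening was lower in each successive class of distance, which was a choice made after seeing the data. It was 21.5% of the 237 peaks within 1000 bases of a late-opening peak, 21.2% from 1000 to 2500 bases, 19.8% from 2500 to 5000 and 17.7% from 5000 to 10000. The share was 13.1% from 10000 to 20000 bases, 9.01% from 20000 to 50000, 6.97% from 50000 to 100000 and 6.32% beyond that or on scaffolds with no late-opening peak. Peaks near each other were not taken as independent, so the trend is given with no test.

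Of the 1938 neighbours, 57 belonged to the comparison set, which passed the same competent larva criterion, so their opening was set by that choice. Comparison peaks are counted in the shares above, also in those by distance and in those of peaks with an opening neighbour. Some neighbours with a mean below 100 also met that criterion, and they are counted among the neighbours throughout. Without the comparison set, a choice made after seeing the data, 316 of 1881 neighbours (16.8%) opened, against 6.52% of all peaks in neither set. Among all peaks with another peak of mean at least 100 within 10000 bases, 7.36% opened. Peaks of neither set within 10000 bases of a comparison peak opened in 182 of 1227 cases (14.8%), which was also above the share over all peaks in neither set.

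The count of opening neighbours rested on the libraries of 3 stages. It was 187 and 186 without elongation replicate 1 and 2, 81 and 117 without mature larva replicate 1 and 2, and 85 and 172 without competent larva replicate 1 and 2. The share among all other peaks fell as well, and the share near late-opening peaks was between 2.54 and 5.18 times it in every fit.

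Among the neighbours that opened, OFUS_peak_31976 (scaffold 9, 7441445 to 7442895), 3640 bases from a late-opening peak, showed the largest change at a high level. It held 310.1 and 413 normalised reads in the gastrula, 240.2 and 334 at elongation, 389 and 496 in the mature larva, then 4097 and 3342 in the competent larva. The competent values were far above the others, and the log2 difference from the mature larva was 3.07 (SE 0.20). It belonged to the comparison set, whose criterion already required such a rise, so this difference is a description and not a test.

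OFUS_peak_37801 (scaffold 11, 18457080 to 18457411) was low before competence, with 29.4 and 7.71 normalised reads in the gastrula, 25.3 and 34.4 at elongation, and 32.9 and 27.6 in the mature larva, and had 296 and 342 in the competent larva (log2 difference 3.36, SE 0.49, limma adjusted p = 0.000522). Its competent values did not overlap with any earlier one. OFUS_peak_40468 (scaffold 12, 16272091 to 16272841) had the largest fitted difference (limma adjusted p = 0.00152), but it held only 0 and 1.21 normalised reads in the mature larva, against 21.6 and 10.9 in the competent larva, so the size of the change depends on the pseudocount. Its gastrula values (14.8 and 25) and elongation values (15.1 and 26.6) were above the lower competent value, and both mature larva values were below all others.

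A neighbour singled out after its values were seen, OFUS_peak_17680, ended 190 bases before the start of OFUS_peak_17681, the late-opening peak with the fifth highest ratio. It held 242 and 251 normalised reads in the gastrula, 225 and 215 at elongation, 364 and 364 in the mature larva, then 2939 and 2429 in the competent larva. Both competent values were far above the rest, and the mature larva was above the earlier stages without overlap, which placed it in the comparison set.

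**Figure D5:**
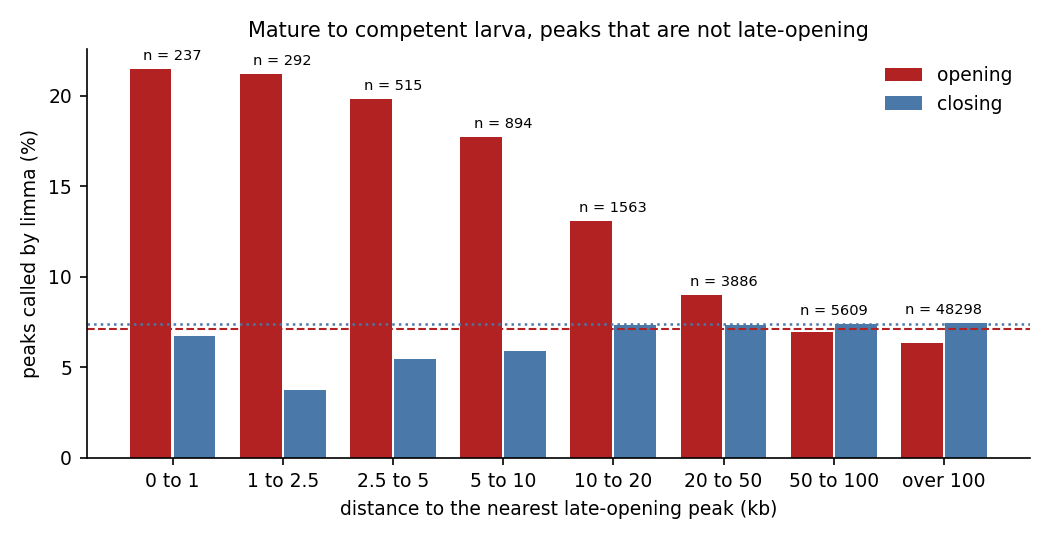
Share (%) of peaks other than the late-opening ones that were called opening (red) or closing (blue) from the mature to the competent larva (limma, adjusted p under 0.05), by distance in kilobases to the nearest late-opening peak, with the shares over all these peaks as broken lines. The opening share goes from 21.5% in the nearest class to 6.32% in the farthest, and the share over all these peaks is 7.13%.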

How the data were processed

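The stage in each label placed the ATAC-seq libraries in 4 groups of 2. The deposited table gave a signal per consensus peak: the authors trimmed reads, mapped them with NextGenMap, removed duplicates, shifted reads for Tn5, called peaks per library with MACS2 (2.2.7.1), kept reproducible ones outside repeats, merged them with DiffBind and normalized reads with DESeq2. Values are not divided by peak width. No source used here named the build of the genome, and no genome, gene annotation or sequence in these coordinates was used, nor was the expression table. Coordinates are 1-based on the deposited scaffolds. Deposited lists of peaks per library held fold enrichment (a ratio to local background) and significance as −log10 p from the authors' caller, and lists were assigned by their linked sample. A consensus peak was in a list when it shared at least 1 base with a called peak.

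The lowest value above 0 in a library was taken as the value of 1 read, with a tolerance of 0.1 read. In both mature larva libraries 66.2% and 85.7% of low values came out whole, and 100% in the others, so reads are approximate and no count model was run. Changes were tested with limma (3.58.1, R 4.3.3) on log2(value + 1), in 1 model of all 8 libraries with the stage as the only term, a mean trend and Benjamini-Hochberg adjustment over all peaks. The 1863 peaks at 0 in all libraries were left out, and 2 columns of other samples were not used. Log2 differences understate the change of low peaks. The p-values measure only the spread between these libraries. The procedure was also run on simulated reads with the same setting of the spread for all peaks and no platform effect. That run does not show how it performs on these libraries.

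Members, lists and tests were chosen with earlier results of these data known. Peaks named were the 8 with the highest ratio of the lower competent to the highest other value, the 4 with the highest competent mean, the 3 with the highest and the 3 with the lowest gastrula level relative to the higher of elongation and mature larva, the 3 on each side of the threshold, the 3 runs with the most members (ties by competent mean), the called peaks from gastrula to elongation and the 3 called neighbours with the largest change. Alternatives were another scaling, filters, pseudocount, trend, a replicate block, distances, thresholds and leaving out each library.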

Additional observations from a re-analysis of the deposited data

How the results depend on the processing

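The number of late-opening peaks was 565 after quantile normalization (458 of them among the 575) and 623 with a minimum mean of 50. It was 122 at 3 times and 1560 at 1.5 times the highest other value, 363 with a minimum mean of 200 and 320 with a mature larva limit of 1.2. Leaving out 1 library gave 477 to 851. From gastrula to elongation, 0 late-opening peaks were called with no filter and 0 without the mean trend, and 0 to 2 with 1 library left out. For opening neighbours the counts were 221 with no filter, 212 without the mean trend, 215 within 5000 bases, 928 within 50000 bases and 81 to 394 with 1 library left out. With the exchanged peak lists, 62 late-opening peaks were in both gastrula lists and 199 in both elongation lists. Same-numbered replicates deviated from their stage means with correlations of -0.00333 to 0.241, so a pairing by number was not established. With the replicate number as a block, 5 late-opening peaks (0.87%) were called from gastrula to elongation, against 3.13% of all peaks tested. In that fit 423 neighbours (21.8%) opened, against 8.3% of all other peaks. The cause of these shifts was not tested. Where a replicate was left out, the lone library was assumed to vary like the other stages. The planned motif search was not run, since no genome of these coordinates was used here.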
